A study of Mus musculus with 17 samples.

Results

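Tubb4a, a beta tubulin gene, and 9 further tubulin genes were followed through 17 RNA-seq libraries of mouse retinal pigment epithelium (RPE). The 10 genes comprised 7 beta tubulins (Tubb4a, Tubb2a, Tubb2b, Tubb3, Tubb4b, Tubb5 and Tubb6) and 3 alpha tubulins (Tuba1a, Tuba1b and Tuba4a), out of 22253 genes in the table. Tubb4a was chosen because its counts were high in GFP-positive RPE (GFP+-RPE) against central RPE, so its levels are given as a description without a test. The other 9 genes were chosen by name as isotypes of the same family.

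The study profiled RPE cells of Serpine3GFP/+ mice, in which a GFP knock-in reports the serpin gene Serpine3, at 2 months of age. All 3 groups therefore carried the same reporter allele and differed in where the cells lay and whether they fluoresced. Each library was made with the SMART-Seq mRNA LP kit, a low-input method that copies full-length polyadenylated RNA, from a pool of 10 to 15 hand-picked cells according to the labels. The study's methods give a smaller number of cells per pool, and the labels also name a SMARTer Ultra Low Input kit for the lysis buffer, so pool size and lysis kit are uncertain. GFP+-RPE came from the peripheral eyecup (6 libraries), ctrl periphery was GFP-negative RPE of the same region (5 libraries), and ctrl center was GFP-negative RPE of the central eyecup (6 libraries). Periphery and center were separated by a cut of the eyecup along its middle line. Libraries are named here by mouse: mice 1, 2, 4, 5 and 7 gave all 3 groups, mouse 3 gave GFP+-RPE only and mouse 6 gave ctrl center only. The libraries of mouse 1 carried the numbers of 2 animals in their labels and were counted as 1 replicate.

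Tubulin is a dimer of 1 alpha and 1 beta subunit, and dimers join end to end into the protofilaments of microtubules. Mammals express several alpha and beta isotypes from separate genes, which are closest to each other in the body of the protein and differ most in the acidic C-terminal tail, the surface read by motors and by modifying enzymes such as glutamylases. Tubb4a is known mainly from brain and from myelinating oligodendrocytes, Tubb3 from neurons, and Tubb4b from cilia and many other tissues. In RPE, microtubules carry melanosomes and the phagosomes taken up from photoreceptors.

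The tail coding sequence differed in its bases among Tubb4a, Tubb4b, Tubb2a, Tubb2b and Tubb5. Such base differences do not always alter the protein. Each line gives the last 20 codons and the stop codon, 63 bases of the GRCm38 build, read 5′ to 3′ on the minus strand, in the last coding exon. Capitals mark bases that differ from, or have no partner in, the gene named after "against" when the full coding sequences are aligned.
Tubb4a, chr17:57080690-57080752, against Tubb4b: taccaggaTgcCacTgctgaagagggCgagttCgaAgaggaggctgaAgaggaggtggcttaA
Tubb4b, chr2:25222308-25222370, against Tubb4a: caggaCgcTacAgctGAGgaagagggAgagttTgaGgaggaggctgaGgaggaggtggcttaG
Tubb2a, chr13:34074468-34074530, against Tubb4a: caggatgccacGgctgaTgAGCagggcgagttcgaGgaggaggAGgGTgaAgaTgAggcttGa
Tubb2b, chr13:34127471-34127533, against Tubb2a: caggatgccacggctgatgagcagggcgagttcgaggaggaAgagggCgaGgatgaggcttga
Tubb5, chr17:35834982-35835044, against Tubb4a: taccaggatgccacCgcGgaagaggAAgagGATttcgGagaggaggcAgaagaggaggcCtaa

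Over these 63 bases Tubb4b had 11 capitals against Tubb4a, Tubb2a had 14 and Tubb5 had 10. Tubb2b differed from Tubb2a at 3 of the 63 bases, and both sequences encode the same amino acids. The Tubb4b sequence encodes the amino acids of Tubb4a apart from an added glutamate, which shifts where its stretch begins. The capitals therefore count bases and do not measure how far the protein tails differ. Over the whole coding sequence Tubb4a was 83.2% identical to Tubb4b and 84.5% to Tubb2b, and the other 4 beta genes lay between 82.4% and 84.0%. Identity was higher within the pairs Tubb2a and Tubb2b, at 96.5%, and Tuba1a and Tuba1b, at 98.3%.

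These identities bear on how well reads can be assigned. Of the 2179 stretches of 50 bases (the read length in the study's methods) in the Tubb4a transcript, 4 also occurred in another annotated gene, so 99.8% were found in Tubb4a alone. The share was 100% for Tubb3 and Tubb6 and 99.9% for Tubb5. It fell to 60.7% for Tubb2b and 50.4% for Tubb2a, which shared 712 stretches with each other. For Tubb4b it was 44.5%, with 675 stretches shared with the pseudogene Tubb4b-ps1. Tuba4a stood at 51.2%, with 1330 stretches shared with Stk16, whose exons overlap it on the opposite strand. For Tuba1a and Tuba1b it was 24.5% and 16.9%, and both shared most with Tuba1c, a further alpha tubulin gene. Whether the counting used strand is not given in the sources used here. Reads from the parts of Tuba4a and Tubb4b that overlap a gene on the other strand therefore cannot be assigned with certainty. The assignment of reads that Tubb4b shares with Tubb4b-ps1 is uncertain too, as is the split of counts among Tuba1a, Tuba1b and Tuba1c.

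**Figure D1:**
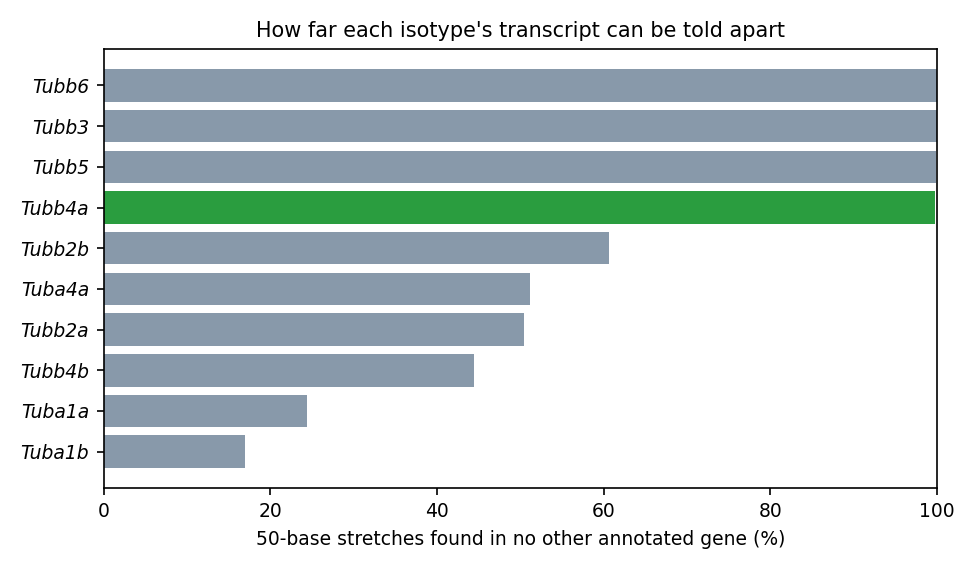
Percentage of 50-base stretches of each isotype's transcript that occur in no other annotated gene of GRCm38 (horizontal axis, 0 to 100%), one bar per gene with Tubb4a in green. Tubb4a, Tubb3, Tubb5 and Tubb6 were almost wholly distinct, whereas Tuba1b stood at 16.9%.

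Library totals ran from 9896118 to 22467079 estimated counts, and 3 counts, taken as the floor of detection, equalled 0.116 to 0.554 CPM (counts per 1000000 counts of the library, with the total adjusted by TMM, the trimmed mean of M values). These floors cover counting error only. The share of counts from mitochondrially encoded genes was 0.710% to 17.2% in GFP+-RPE, 12.5% to 30.4% in ctrl periphery and 13.7% to 47.3% in ctrl center, and the ctrl center library of mouse 5 held the highest share. The RPE label was checked with 10 RPE genes: their summed level lay between 45800 and 91800 CPM in the 17 libraries, Rpe65, the visual cycle isomerase, was at 2990 CPM or more in each, and Best1 was at or under the floor in all of them. In pools of cells, fewer cells of a type and less RNA per cell cannot be told apart.

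Tubb4a was abundant in every GFP+-RPE library and near absent from ctrl center. The gene lies at chr17:57080066-57087782 of GRCm38 on the minus strand, has 4 exons in its principal transcript, and overlaps no exon of another gene. In GFP+-RPE its level was 84.3, 65.6, 77.6, 65.4, 25.5 and 155 CPM in mice 1, 2, 3, 4, 5 and 7, from 2173, 1381, 1746, 866, 362 and 3258 counts. Mouse 7 was highest and mouse 5 lowest, 6.10-fold apart. In ctrl center no library held more than 2 counts (1, 2, 0, 0, 0 and 1 in mice 1, 2, 4, 5, 6 and 7). The mean was 78.9 ± 42.6 CPM (SD, n = 6) in GFP+-RPE, at least 259-fold higher than in ctrl center with each ctrl center library set to its floor of 3 counts.

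Ctrl periphery was low except in 1 library. Mice 1, 2, 4, 5 and 7 gave 0, 12, 182, 0 and 2 Tubb4a counts, or 0, 0.622, 8.76, 0 and 0.198 CPM. The GFP+-RPE libraries lay wholly above those of ctrl center, like 0.862% of all genes tested there, and above those of ctrl periphery, like 0.624%; Tubb4a was chosen for this, so nothing is read from it. The lowest GFP+-RPE library stood 2.91-fold above the ctrl periphery library of mouse 4. Within mouse 4 itself, GFP+-RPE was 7.46-fold above ctrl periphery. The ratio of the group means was 41.2 (78.9 against 1.92 ± 3.83 CPM, SD, n = 5), and without the ctrl periphery library of mouse 4 the fold was at least 239, with libraries below the floor set to it.

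Serpine3, the reporter's host gene, was read in the same libraries as a check of the labels. It lay between 6.20 and 22.4 CPM in the 6 GFP+-RPE libraries, had 5 counts in ctrl periphery of mouse 1, and had 0 counts in the other 4 ctrl periphery and all 6 ctrl center libraries. The ctrl periphery library with 182 Tubb4a counts was among those with 0 Serpine3 counts. Tubb4a and Serpine3 did not keep a fixed ratio in GFP+-RPE: Tubb4a CPM per Serpine3 CPM was 3.77, 3.72, 9.98, 5.62, 3.38 and 25.1 in mice 1, 2, 3, 4, 5 and 7. The library with the most Tubb4a (mouse 7) had the least Serpine3.

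**Figure D2:**
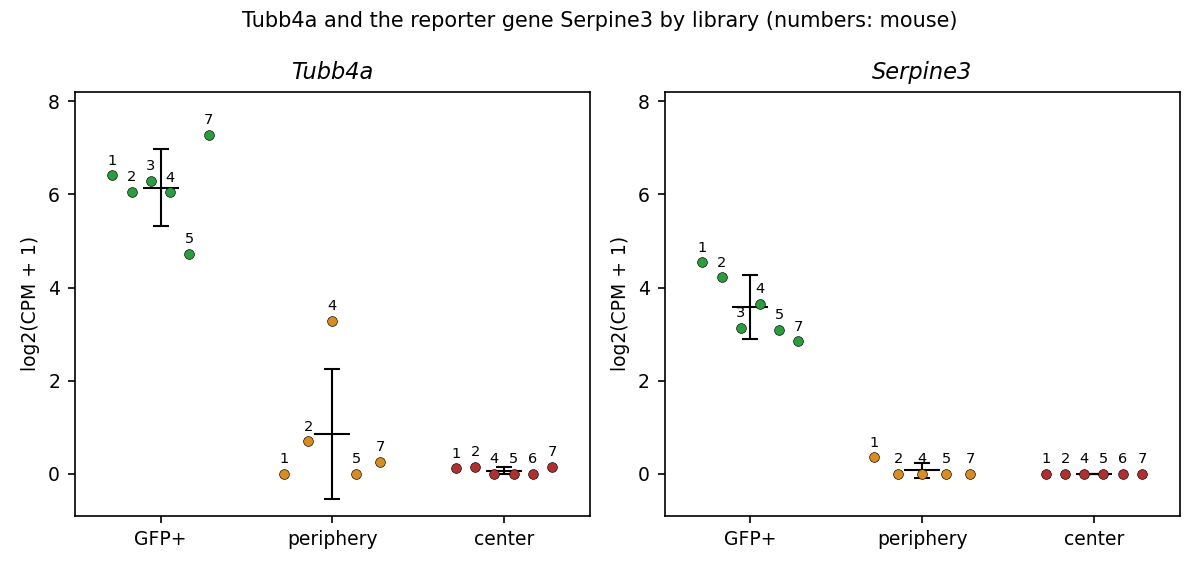
Level of Tubb4a (left) and Serpine3 (right) in each library as log2(CPM + 1), by group, with mouse numbers beside the points, and the mean and SD of the log2 values as bars. All 6 GFP+-RPE libraries lay above every other library for both genes, and the 8.76 CPM of Tubb4a in ctrl periphery of mouse 4 had no counterpart in Serpine3.

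Other cell types known to use these isotypes were checked by their markers. Of 8 myelin and Schwann cell genes, the summed level was 69.8 to 112 CPM in GFP+-RPE, 65.1 to 147 CPM in ctrl periphery and 38.5 to 265 CPM in ctrl center. Within that list Mbp, a myelin protein gene, lay at 10.1 to 57.7 CPM in GFP+-RPE against 0.198 to 21.2 CPM in ctrl periphery and 0 to 24.4 CPM in ctrl center, while Mog, which marks mature oligodendrocytes, had 0 counts in all GFP+-RPE libraries. Of 10 neuronal genes, the sum was 0 to 18.1 CPM in GFP+-RPE, 2.87 to 31.6 CPM in ctrl periphery and 0.998 to 120 CPM in ctrl center, and 9 of the 10 were at or under the floor throughout GFP+-RPE, Snap25 with 0 counts. The sum of 4 endothelial genes was 0 to 10.4 CPM in GFP+-RPE and at most 0.673 CPM in the other libraries, with Cdh5 and Tek at or under the floor in all 17. The sum of 4 macrophage and microglia genes was 35.6 to 111 CPM in GFP+-RPE, 96.7 to 146 CPM in ctrl periphery and 68.4 to 116 CPM in ctrl center, with Cx3cr1 and Aif1 at or under the floor in all 17 libraries. The part of Mbp-expressing, endothelial or macrophage RNA and of the mitochondrial share in the Tubb4a difference was not tested. The sums of the remaining lists overlapped between GFP+-RPE and both other groups: 9 rod and cone genes reached at most 30.8 CPM, 4 ciliary epithelium genes 20.8 CPM and 4 fibroblast genes 1.29 CPM in any library, and 5 Mueller glia genes ran from 376 to 775 CPM. Of the Mueller glia genes, Aqp4 was at or under the floor in all 17 libraries. Slc1a3 and Kcnj10 were so throughout GFP+-RPE, and Dkk3 throughout ctrl center.

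The level of Tubb4a was then set against the other isotypes, per kilobase of the principal transcript so that genes of unequal length can be compared. In GFP+-RPE the order by mean CPM per kilobase was Tuba1b (494 ± 106), Tubb4b (159 ± 33.9), Tubb2a (113 ± 118), Tuba4a (65.8 ± 23.4), Tubb4a (35.4 ± 19.1), Tuba1a (18.0 ± 12.6), Tubb5 (14.1 ± 4.44), Tubb6 (3.11 ± 4.47), Tubb2b (0.164 ± 0.213) and Tubb3 (0.00424 ± 0.0104; SD, n = 6). The ranges of Tuba1b and Tubb4b did not overlap, and every later pair of neighbours in that order overlapped. Tubb4a thus ranked 5 of 10 in GFP+-RPE, with ranges overlapping both Tuba4a above it and Tuba1a below it. In ctrl periphery it ranked 8 of 10 (0.860 ± 1.72 CPM per kilobase, n = 5) and in ctrl center 9 of 10 (0.0228 ± 0.0254, n = 6), with 3 of 5 and 6 of 6 libraries at or under the floor.

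Among the 7 beta genes alone, Tubb4a supplied a modest share of GFP+-RPE counts. Per kilobase that share was lowest at 5.99%, had a median of 9.22% and reached 30.0% in mouse 7, with a mean of 12.5% ± 9.24 (SD, n = 6). It was 0.427% ± 0.853 in ctrl periphery (n = 5) and 0.00983% ± 0.0110 in ctrl center (n = 6). Without the correction for length the GFP+-RPE share was 15.7% ± 10.8. Tubb4a ranked 3 of the 7 per kilobase in 5 GFP+-RPE libraries and 2 in mouse 7, and 4 to 6 in every library of the other groups. Genes tied at 0 counts were given the best rank of the tie, so those ranks include libraries without Tubb4a counts.

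Tubb4b, an isotype of wide expression, was the highest beta gene per kilobase in all 6 ctrl center, all 5 ctrl periphery and 4 of the 6 GFP+-RPE libraries. Tubb2a was highest in the other 2, those of mice 1 and 2. When Tubb4a was left out of the total, Tubb4b made up 62.5% ± 18.7 of the beta counts per kilobase in GFP+-RPE, 65.8% ± 5.89 in ctrl periphery and 73.7% ± 17.8 in ctrl center, and these ranges overlapped.

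**Figure D3:**
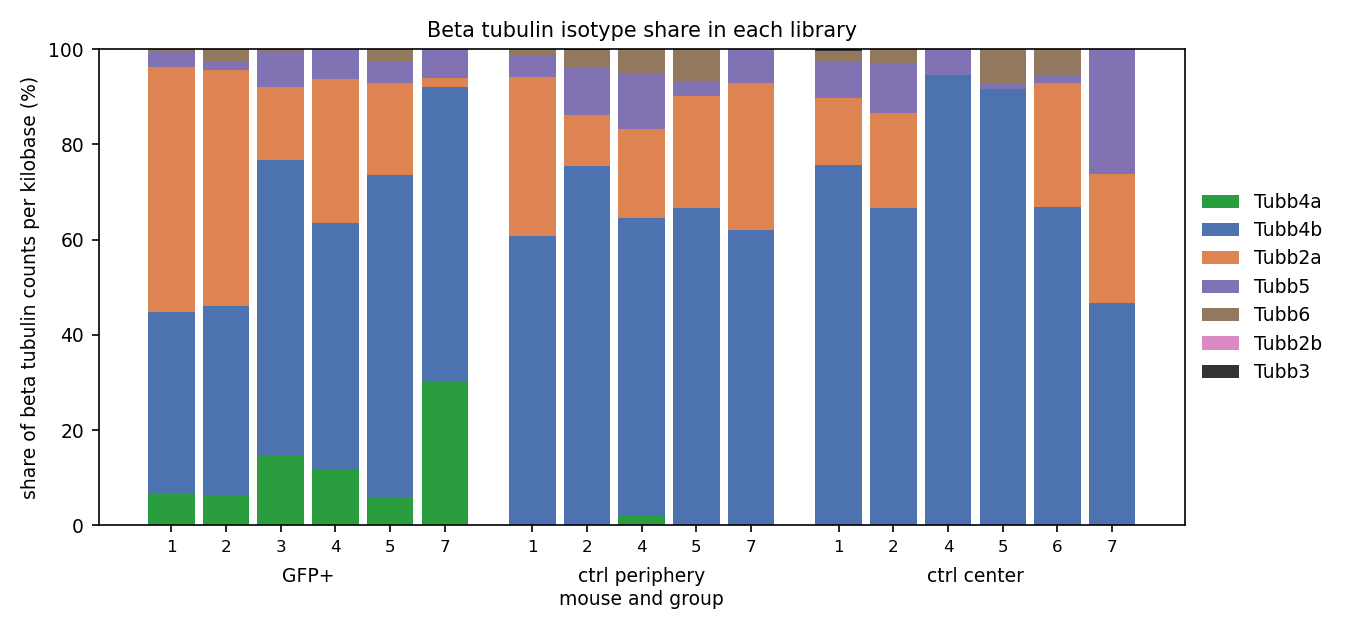
Share of each beta isotype in the beta tubulin counts per kilobase of transcript (vertical axis, %), one stacked bar per library, labelled by mouse number and group. Tubb4a (green) took 5.99% to 30.0% in GFP+-RPE and was visible elsewhere only in ctrl periphery of mouse 4, and Tubb2b and Tubb3 are too small to be seen in most bars.

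The other 9 isotypes were compared between the groups over libraries. Of these, 7 (Tubb2a, Tubb4b, Tubb5, Tubb6, Tuba1a, Tuba1b and Tuba4a) had enough counts to enter each fit, and Tubb2b and Tubb3 did not. Calls came from edgeR's quasi-likelihood test over all genes tested and required an adjusted p (Benjamini-Hochberg) under 0.01 together with a log2 fold change over 1 in either direction. In GFP+-RPE against ctrl center 0 of the 7 were called, where 0.0431% of the 9286 genes tested were. The lowest adjusted p in edgeR among the 7 was 0.970, 0 had an unadjusted p under 0.05 (5.80% of all genes) and 0 had ranges that did not overlap (1.13% of all genes, with 0.862% above and 0.269% below). In GFP+-RPE against ctrl periphery 0 of the 7 were called, where 0.0396% of 10102 genes were, with 0 at an unadjusted p under 0.05 (5.58% of all genes), 0 without overlap (1.29%, 0.624% higher and 0.663% lower) and a lowest edgeR adjusted p of 0.967. In ctrl periphery against ctrl center 0 of the 7 were called, as were 0% of 9535 genes, with 0 at an unadjusted p under 0.05 (2.70% of all genes), 0 without overlap (0.755%, 0.640% higher and 0.115% lower) and a lowest edgeR adjusted p of 1.00. DESeq2 also called 0 of the 7 in each comparison, with 0 at an unadjusted p under 0.05 and lowest adjusted p of 0.588, 0.485 and 0.905. The comparisons share libraries, so their values are given side by side and not as independent results. In simulated data the 3 fits called 18, 33 and 13 of 100 genes of above-median level given a 4-fold change. A count of 0 called, here and for the lists below, therefore does not mean that no gene changed.

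The width of the intervals differed by gene. Tubb4b stood at 206, 235 and 336 CPM (lowest, median, highest) in GFP+-RPE, 85.1 to 339 CPM in ctrl periphery and 188 to 322 CPM in ctrl center. The 3 groups overlapped almost wholly. Its log2 fold change was -0.01 (95% interval -0.50 to 0.48) against ctrl center and 0.28 (-0.31 to 0.88) against ctrl periphery, so a log2 change of 1 against ctrl center lay outside the interval.

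Tubb2a, an isotype prominent in brain, varied widely between libraries. In GFP+-RPE it stood at 458, 385, 59.8, 123, 59.6 and 6.96 CPM in mice 1, 2, 3, 4, 5 and 7. Ctrl periphery gave 188, 33.4, 60.2, 30.1 and 105 CPM in mice 1, 2, 4, 5 and 7. Ctrl center gave 37.4, 97.2, 0.200, 0, 108 and 109 CPM in mice 1, 2, 4, 5, 6 and 7. Mice 1 and 2 were the high GFP+-RPE libraries, the libraries of mice 4 and 5 in ctrl center were at or under the floor, and GFP+-RPE of mouse 7, which had the most Tubb4a, had the least Tubb2a of its group. The log2 fold change was 1.61 against ctrl center (-0.74 to 3.96) and 1.17 against ctrl periphery (-0.46 to 2.79), and the groups overlapped. A block by animal uses the libraries of the same mouse together and leaves out mice without both groups. The effects of pairing and of the libraries left out cannot be told apart. With this block the Tubb2a log2 fold change was 3.91 against ctrl center and 0.91 against ctrl periphery. In ctrl periphery against ctrl center it went from 0.47 to 2.70. None of these passed the threshold (edgeR adjusted p 0.855 or more).

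Tubb5, the isotype of most dividing and non-dividing cells, had means of 37.3 ± 11.8, 40.6 ± 20.9 and 55.2 ± 65.2 CPM in GFP+-RPE, ctrl periphery and ctrl center. Its spread in ctrl center ran from 4.25 CPM in mouse 5 to 175 CPM in mouse 7. Tubb6, a further widely expressed beta gene, was low, at 5.47 ± 7.86, 9.62 ± 6.60 and 11.3 ± 10.7 CPM. Each group held at least 1 library with 0 Tubb6 counts. The log2 fold changes of GFP+-RPE against ctrl center were -0.63 (-2.14 to 0.89) for Tubb5 and -1.11 (-4.59 to 2.36) for Tubb6. Single libraries set these values: without ctrl center of mouse 7 that of Tubb5 was 0.22, and without GFP+-RPE of mouse 2, which had 20.3 CPM, that of Tubb6 was -2.26. Against ctrl periphery, Tubb6 went from -0.76 to -1.96 without the same GFP+-RPE library. With the animal as a block, Tubb6 was -0.12 against ctrl center.

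Tubb2b and Tubb3, isotypes of developing and mature neurons, were close to undetected. Tubb2b reached 26 counts in 1 library, GFP+-RPE of mouse 1, and its counts were at most 0.234% of those of its near-copy Tubb2a in the libraries with over 100 Tubb2a counts. The highest Tubb3 count was 11, in ctrl center of mouse 1, and 14 of the 17 libraries had 0 Tubb3 counts. Tubb4a counts in GFP+-RPE were therefore not accompanied by the neuronal isotype Tubb3, for which 5 of the 6 GFP+-RPE libraries had 0 counts and the other had 1.

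**Figure D4:**
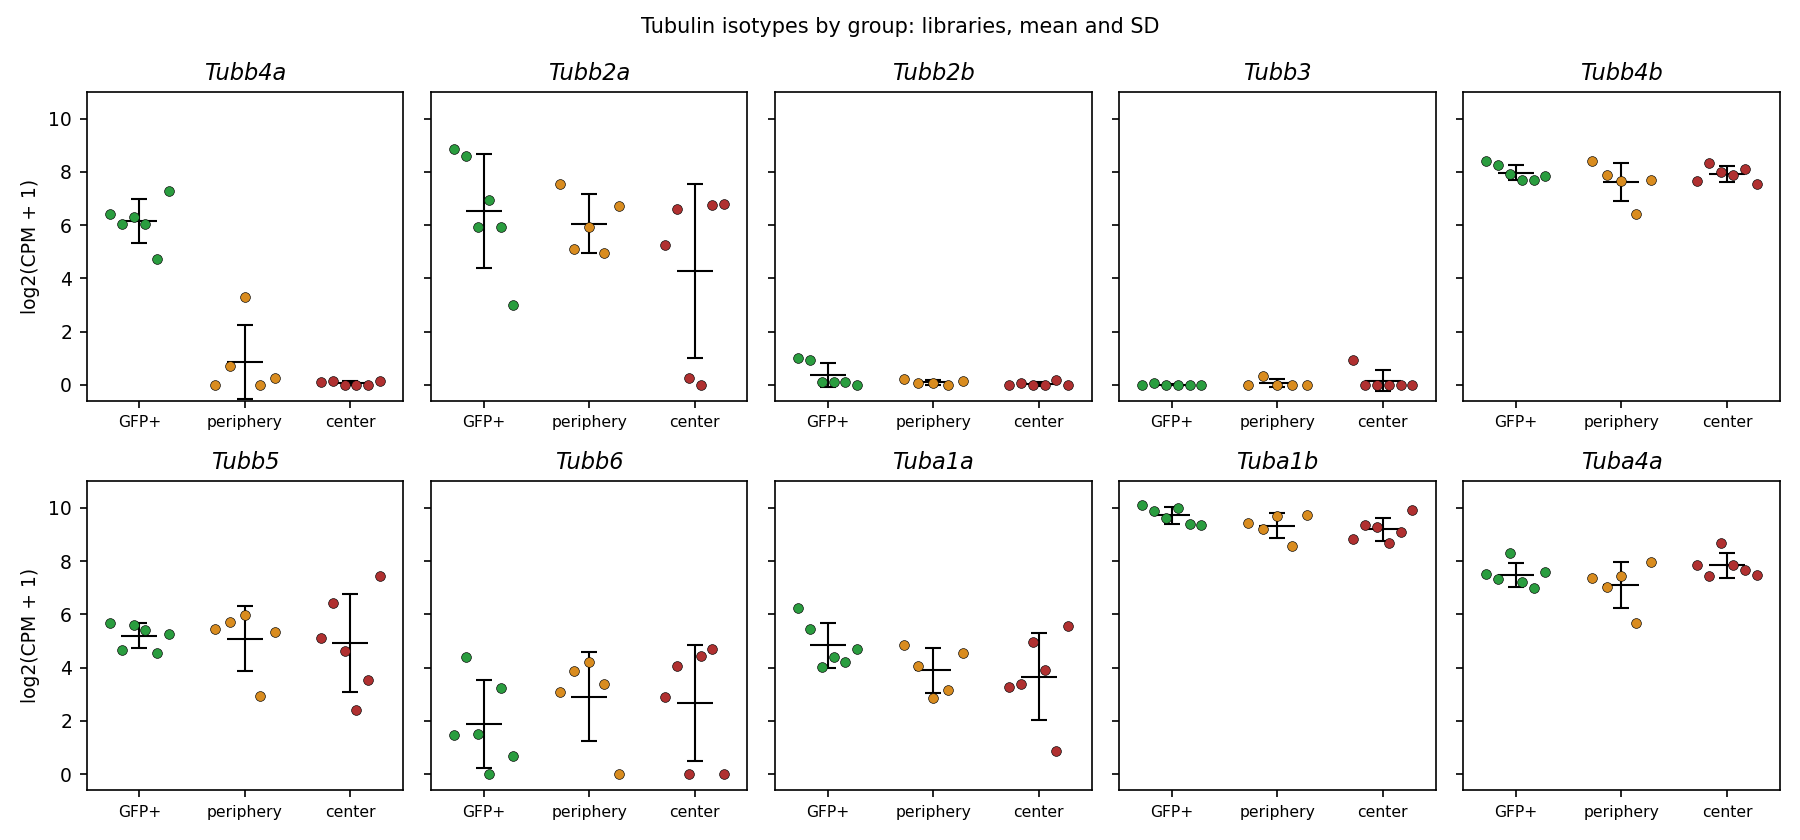
Level of each of the 10 isotypes as log2(CPM + 1) in each library (points, in mouse order within a group), with the mean and SD of the log2 values per group as bars. Tubb4a was the isotype whose GFP+-RPE libraries lay wholly above both other groups, whereas Tuba1b and Tubb4b were high in all 17 libraries and Tubb3 and Tubb2b near 0.

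The alpha isotypes, the partners of all beta tubulins in the dimer, were led by Tuba1b. It stood at 657, 864 and 1090 CPM (lowest, median, highest) in GFP+-RPE, 380 to 849 CPM in ctrl periphery and 406 to 957 CPM in ctrl center. GFP+-RPE was on average highest, but the ranges overlapped. The log2 fold change was 0.45 (-0.06 to 0.95) against ctrl center and 0.41 (-0.07 to 0.88) against ctrl periphery, with edgeR unadjusted p of 0.0780 and 0.0913, the lowest of the 7 isotypes in both comparisons. Tuba1a, known from developing neurons, was much lower, at 32.4 ± 22.7, 16.0 ± 9.08 and 18.4 ± 17.1 CPM in GFP+-RPE, ctrl periphery and ctrl center, with log2 fold changes of 0.75 (-1.05 to 2.55) and 1.04 (-0.26 to 2.35) for GFP+-RPE against ctrl center and ctrl periphery.

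Tuba4a, an alpha isotype whose gene already encodes the form without the last tyrosine, had means of 187 ± 66.6 CPM in GFP+-RPE, 153 ± 72.3 in ctrl periphery and 239 ± 89.3 in ctrl center. A single library was well above the rest in GFP+-RPE (313 CPM in mouse 3) and in ctrl center (414 CPM in mouse 4). Its log2 fold change was -0.42 (-1.03 to 0.18) in GFP+-RPE against ctrl center and -0.72 (-1.51 to 0.08) in ctrl periphery against ctrl center, the latter with the lowest unadjusted p of that comparison, 0.0732 in edgeR.

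**Figure D5:**
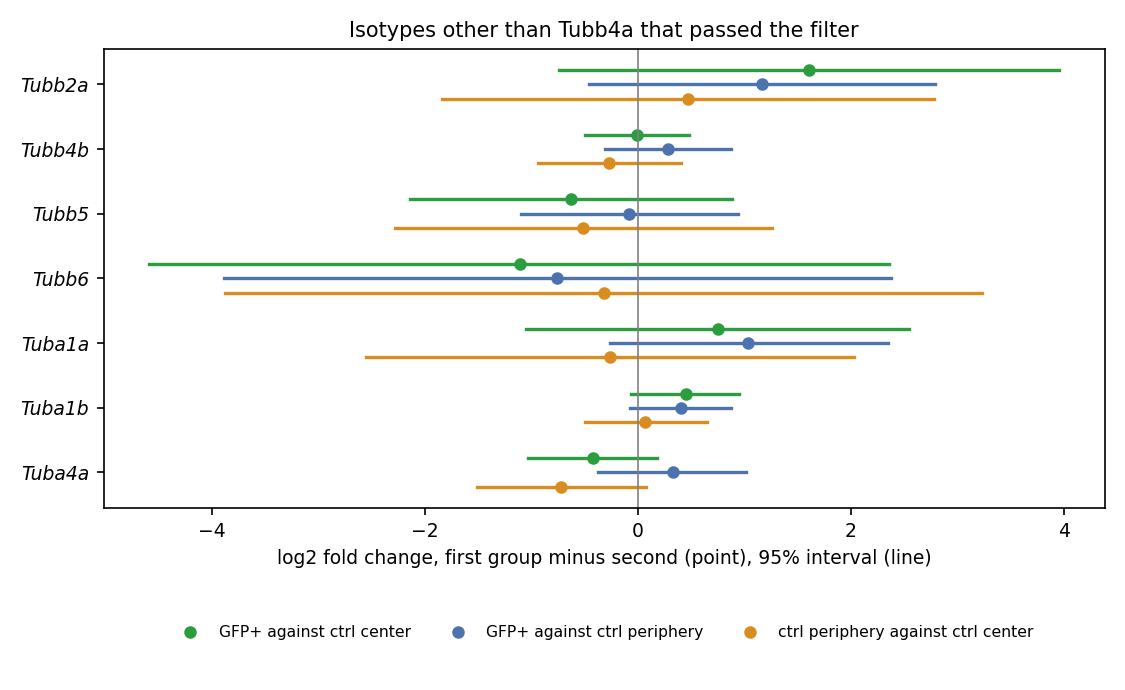
Log2 fold change (point) and 95% interval (line) from edgeR's quasi-likelihood fit for the 7 isotypes other than Tubb4a that entered the fits, in 3 comparisons shown by colour, first group minus second. All intervals spanned 0. They were narrowest for Tubb4b and Tuba1b and widest for Tubb6 and Tubb2a.

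The totals of the listed members were compared next, leaving out Tubb4a. The summed beta tubulin level was 480.0 ± 247 CPM in GFP+-RPE (n = 6), 348 ± 158 CPM in ctrl periphery (n = 5) and 371 ± 113 CPM in ctrl center (n = 6). The difference of 109 CPM between GFP+-RPE and ctrl center gave p = 0.377 in an exact two-sided permutation test (adjusted over 6 comparisons 0.566). That of 133 CPM against ctrl periphery gave exact permutation p = 0.355 (adjusted 0.566), and that between ctrl periphery and ctrl center 0.775 (adjusted 0.848). None of these was larger than relabelling of the libraries commonly gave. Within the 5 mice that gave all groups, the beta sum was higher in GFP+-RPE than in ctrl center in 4 and than in ctrl periphery in 4, with paired exact permutation p of 0.312 and 0.188, where 5 pairs cannot give less than 0.0625.

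Summed alpha tubulin (Tuba1a, Tuba1b and Tuba4a) was 1080 ± 203 CPM in GFP+-RPE, 835 ± 264 CPM in ctrl periphery and 865 ± 215 CPM in ctrl center. The sum leaves out Tuba1c, at 250 ± 115, 198 ± 83.3 and 214 ± 18.4 CPM in the same order. It therefore depends on the uncertain split of counts among Tuba1a, Tuba1b and Tuba1c. GFP+-RPE stood 1.25-fold above ctrl center (exact two-sided permutation p = 0.0974, adjusted 0.351) and 1.29-fold above ctrl periphery (exact p = 0.117, adjusted 0.351). For ctrl periphery against ctrl center the exact permutation p was 0.848 (adjusted 0.848). Within mice, GFP+-RPE was higher than ctrl center in 4 of 5 (paired exact permutation p = 0.375) and than ctrl periphery in 4 of 5 (p = 0.188), mouse 7 being the exception in both. The smallest p the unpaired tests can give is 0.00216 for 6 against 6 libraries and 0.00433 for 6 against 5. These differences moved with the scaling, most with library totals alone. With median-of-ratios size factors, the scaling of DESeq2, the log2 ratio of GFP+-RPE to ctrl center was 0.28 for alpha and 0.34 for beta. With library totals alone the log2 ratio of GFP+-RPE to ctrl center went from 0.32 to 0.80 for alpha (exact p = 0.00433) and from 0.37 to 0.80 for beta (exact p = 0.141), and that to ctrl periphery from 0.37 to 0.55 for alpha and from 0.47 to 0.61 for beta (exact p = 0.0519 and 0.277). With totals without mitochondrially encoded genes the alpha ratio to ctrl center was 0.42 (exact p = 0.0325). Against ctrl center, library totals and totals without mitochondrially encoded genes also moved the median log2 ratio of all 9286 genes from 0.06 to 0.48 and 0.15. Relative to that median the alpha difference was 0.26 with the main scaling, 0.31 with library totals and 0.28 without mitochondrially encoded genes.

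The animals fall into 2 runs of label numbers, mice 1 to 3 and mice 4 to 7, and the groups were read within each. Tubb4a means were 75.8 CPM in GFP+-RPE against 0.0970 CPM in ctrl center in mice 1 to 3, and 82.1 against 0.0277 CPM in mice 4 to 7. Summed alpha tubulin was 1200 CPM in GFP+-RPE against 768 CPM in ctrl center in mice 1 to 3, and 958 against 913 CPM in mice 4 to 7. In mice 1 to 3 these means rest on 3 and 2 libraries, and differences within runs were not tested. Summed beta tubulin without Tubb4a was 645 against 398 CPM in mice 1 to 3 and 315 against 357 CPM in mice 4 to 7, so the sign of that difference changed between the runs.

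Genes whose levels followed Tubb4a most closely across libraries were named by the Pearson correlation of log2(CPM + 1) over the 17 libraries, among 10660 genes. They were Zfp790, a zinc finger gene (r = 0.954), Ecrg4, a secreted-peptide gene (0.930), Serpine3 (0.928), Mapk13, a p38 kinase gene (0.895), and Dab2, an endocytic adaptor gene (0.888). The 17 points share the split between the groups, and genes are not independent replicates. Within the 6 GFP+-RPE libraries the same coefficients were 0.517, 0.230, -0.006, 0.622 and 0.961. In ctrl periphery of mouse 4, the library with 182 Tubb4a counts, Zfp790 had 46 counts and Ecrg4 19, whereas Serpine3 and Mapk13 had 0 and Dab2 had 1. Of the other isotypes Tuba1b came nearest to Tubb4a over the 17 libraries (r = 0.570), ahead of Tuba1a (0.380) and Tubb2a (0.282), while Tuba4a (0.016) and Tubb6 (-0.225) did not follow it.

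The wider microtubule machinery was covered by 5 lists with 111 genes, of which 110 were in the table: other tubulins, folding factors, modifying enzymes, microtubule-binding proteins and motors. In GFP+-RPE against ctrl center 0 of 77 tested genes were called (0.0431% of all genes), in GFP+-RPE against ctrl periphery 0 of 79 (0.0396%) and in ctrl periphery against ctrl center 0 of 76 (0% of all genes). At an unadjusted p under 0.05 in edgeR there were 1 of 77 (1.30%), 4 of 79 (5.06%) and 0 of 76, beside 5.80%, 5.58% and 2.70% of all genes. The 1 gene was Stmn1, which encodes the dimer-sequestering protein stathmin, and the 4 were Stmn1, Map7, Camsap3 and Tcp1, named after their values were seen except Map7.

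Among folding and dimer cofactors, 17 of 20 genes were tested in each comparison. Their median log2 fold change was 0.36 in GFP+-RPE against ctrl center beside 0.001 over all genes. It was 0.05 in GFP+-RPE against ctrl periphery (0.013 over all genes) and 0.02 in ctrl periphery against ctrl center (0.009). Stmn1 stood at 32.3 ± 18.5 CPM in GFP+-RPE against 83.7 ± 65.2 in ctrl periphery and 77.4 ± 55.3 in ctrl center, and did not pass the threshold (edgeR adjusted p = 0.785 against ctrl center and 0.801 against ctrl periphery). Tcp1, a subunit of the chaperonin that folds tubulin, was at 118 ± 31.0, 56.9 ± 44.0 and 82.2 ± 53.1 CPM in the same order of groups. Tbcd, a cofactor that assembles and takes apart the dimer, had ctrl periphery libraries (16.3 to 43.5 CPM) wholly above those of ctrl center (0 to 13.5 CPM), as did 0.640% of all genes tested, with GFP+-RPE spread from 0.285 to 30.6 CPM. Tbcd was not called in that comparison (edgeR adjusted p = 1.00).

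Among 30 microtubule-binding and severing genes, 20, 22 and 21 were tested in the 3 comparisons. Map7, which recruits kinesin-1 to microtubules, was at 7.01 to 29.2 CPM in GFP+-RPE and at 31.0 to 79.3 CPM in ctrl periphery, ranges that did not overlap (0.663% of all genes lay lower in this way). Its log2 fold change was -1.61 (SE 0.51), with an edgeR adjusted p of 0.610, so it was not called. Map7 in ctrl center ran from 0.798 to 110 CPM and covered both. Its relative Map7d1 ran from 10.7 to 17.4 CPM in ctrl periphery and from 0 to 8.50 CPM in ctrl center, without overlap (0.640% of all genes lay higher in this way), and was not called (edgeR adjusted p = 1.00). Camsap3, which binds microtubule minus ends, was at 16.0 ± 6.41, 40.9 ± 42.4 and 14.0 ± 16.5 CPM in GFP+-RPE, ctrl periphery and ctrl center.

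The other 3 lists held no gene without overlap in any comparison, and the most abundant genes of each are given by their group means. Of the other tubulins, Tuba1c was highest, at 250 ± 115, 198 ± 83.3 and 214 ± 18.4 CPM in GFP+-RPE, ctrl periphery and ctrl center, and Tubg1 and Tubgcp3, of the gamma tubulin complexes that start microtubules, were at 20.9 ± 19.5 and 23.2 ± 9.39 CPM in GFP+-RPE. Of the modifying enzymes, Svbp, the partner of the detyrosinating vasohibins, was at 84.6 ± 23.1, 86.8 ± 49.0 and 106 ± 31.3 CPM, Sirt2, a tubulin deacetylase, at 89.7 ± 41.2, 89.9 ± 16.9 and 88.9 ± 37.6 CPM, and Ttll5, a glutamylase, at 25.2 ± 7.12, 23.1 ± 15.6 and 35.4 ± 66.2 CPM. Of the motors, Kif1a, a vesicle kinesin best known from neurons, was at 244 ± 104, 156 ± 47.8 and 222 ± 123 CPM. Kif5b, the ubiquitous kinesin-1 heavy chain, was at 168 ± 58.1, 188 ± 72.7 and 175 ± 63.3 CPM, and Kif1b at 187 ± 49.3, 165 ± 38.5 and 162 ± 52.6 CPM.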

How the data were processed

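The 17 SMART-Seq libraries of mouse RPE were read from 1 gene table. The authors deposited whole-number estimated counts per gene symbol. Their processing notes name fastp, Salmon and the build GRCm38.p6, and versions, transcript set and strand setting are not given in the sources used here. Salmon divides reads between similar transcripts by a model, which bears on near-identical isotypes. Columns were matched to samples by library name, with 0 columns unused, and 0 of 136 library pairs held identical values. CPM were scaled by TMM over the 17 libraries. The 3 group pairs were each fitted with edgeR 4.0.16 (quasi-likelihood test, filterByExpr, TMM, R 4.3.3) on all genes that passed, and the code was tested on simulated data. Sums were compared with exact permutation tests (SciPy 1.17.1). Lengths, positions and sequences came from the GENCODE annotation of GRCm38, with coding sequences aligned in Biopython 1.88. Alternatives were DESeq2 1.42.0, other scalings and filters, a shared fit of all 3 groups, a replicate block and each library left out. Equal replicate numbers mark the same animal in the labels, or for mouse 1 the same 2 animals. Libraries were paired by label, although the 15 correlations of deviations within these pairs ran from -0.0195 to 0.0922. Cells of 1 animal are not separate donors across groups. Named were all 10 isotypes, list genes called or without overlap, otherwise the 3 with the highest mean of each list, the 5 genes most correlated with Tubb4a, Serpine3 and defining cell markers. The members and lists were chosen with earlier results of these data known. One listed gene, Matcap1, was not analysed here.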

Additional observations from a re-analysis of the deposited data

Results flagged for a closer look

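Among 34 groups of 5 or 6 library values, which included the 10 isotypes and the Tubb4a share, 7 had a single library set far apart from the rest by Dixon's criterion. Chance gives about 1 in 20, or 1.70, for independent and normally distributed values. The groups here are not independent, and the flagged Tubb3 groups had 0 in every other library. The 7 are therefore not read as an excess. For Tubb4a this was ctrl periphery of mouse 4, at 8.76 CPM with the other 4 libraries between 0 and 0.622 CPM. The Tubb4a share of beta tubulin counts was 2.50% in that library (0% to 0.186% in the others) and 36.1% in GFP+-RPE of mouse 7 (7.90% to 18.2% in the others). For Tuba4a the libraries were GFP+-RPE of mouse 3, at 313 CPM (others 125 to 193 CPM), and ctrl center of mouse 4, at 414 CPM (others 174 to 232 CPM). For Tubb3 they were ctrl periphery of mouse 2, at 0.259 CPM, and ctrl center of mouse 1, at 0.926 CPM, with 0 in the other libraries of each group.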

How the results depend on the processing

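No isotype other than Tubb4a and no listed microtubule gene was called under any fit run, and the lowest adjusted p of the 7 isotypes over all edgeR and DESeq2 fits was 0.234, 0.381 and 0.654 in the 3 comparisons. Some log2 fold changes changed sign between fits, and not only those close to 0. For Tubb4b in GFP+-RPE against ctrl center the log2 fold change was 0.0018 with DESeq2, 0.11 without a filter and 0.01 with the replicate block. The block pairs libraries of equal mouse number. With it Tubb5 in GFP+-RPE against ctrl periphery was 0.05 and Tubb6 in ctrl periphery against ctrl center 0.53. The block also leaves out mice without both groups. With it Tubb2a moved from 1.61 to 3.91 in GFP+-RPE against ctrl center and from 0.47 to 2.70 in ctrl periphery against ctrl center. Tubb6 moved from -1.11 to -0.12 in GFP+-RPE against ctrl center, and no call changed. A term for mice 1 to 3 against mice 4 to 7 gave 0.97 for Tubb2a against ctrl center. Scaling to library totals gave log2 ratios of 0.80 for summed alpha tubulin in GFP+-RPE against ctrl center (exact permutation p = 0.00433), and 0.25 for alpha and 0.19 for beta in ctrl periphery against ctrl center, and totals without mitochondrially encoded genes gave 0.42 (exact p = 0.0325), 0.06 and 0.02. Leaving out each library in turn, the alpha difference between GFP+-RPE and ctrl center ran from 0.25 to 0.43 (exact p 0.0346 to 0.182), with p under 0.05 without ctrl center of mouse 7 (0.0346) or GFP+-RPE of mouse 5 (0.0476), and in ctrl periphery against ctrl center alpha ran from -0.18 to 0.11 and beta from -0.35 to 0.12. The same leave-outs changed signs for Tubb4b (-0.08 to 0.06) and Tubb5 (-0.87 to 0.22) against ctrl center, Tubb5 against ctrl periphery (-0.34 to 0.12), and Tubb2a (-0.08 to 0.77), Tubb5 (-0.73 to 0.33), Tubb6 (-0.64 to 0.03), Tuba1a (-0.55 to 0.28) and Tuba1b (-0.04 to 0.26) in ctrl periphery against ctrl center. Without GFP+-RPE of mouse 2 Tubb6 was -2.26 against ctrl center and -1.96 against ctrl periphery, and without ctrl center of mouse 7 Tubb5 was 0.22 in GFP+-RPE and 0.33 in ctrl periphery against ctrl center. The mean Tubb4a level ran from 63.7 to 89.6 CPM in GFP+-RPE and from 0.205 (without mouse 4) to 2.40 CPM in ctrl periphery. The cause of these shifts was not tested. Tubb2b and Tubb3 had too few counts to be compared.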
